A study of Homo sapiens with 2 samples.

Results

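A set of 9 genes of bone-forming cells that RUNX2 is known for was followed in ovarian carcinoma cells whose RUNX2 had been knocked down. They were the matrix protein genes SPP1 (osteopontin), IBSP (bone sialoprotein) and BGLAP (osteocalcin), the alkaline phosphatase gene ALPL, the transcription factor genes SP7 (osterix), DLX5 and MSX2, and the ligand and decoy receptor genes TNFSF11 (RANKL) and TNFRSF11B (osteoprotegerin). They were taken as a list of osteoblast and skeletal regulators, and every probe, controls left out, whose RefSeq accession mapped to them was used. They had 13 of the 41000 different probes of the array, 2 each for ALPL, BGLAP, MSX2 and TNFRSF11B and 1 each for the other 5 genes.

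SKOV3 is a human ovarian adenocarcinoma cell line that grows as an adherent culture. The knockdown cells, cl-sh3, were 1 stable clone made by lentiviral transfer of a RUNX2 short hairpin RNA in the vector pLKO.1-puro. The control was a mock-transduced clone with the same vector carrying a scrambled sequence, so that vector and puromycin selection were shared by both. Labelled RNA of both clones was put together on Agilent arrays of the whole human genome, with the control in Cy3 and cl-sh3 in Cy5 in hybridization 1 and the dyes reversed in hybridization 2. They share the slide and the 2 RNAs, and count as 1 biological replicate. No test between the clones could be made, no p-value is given, and a difference between the clones cannot be told apart from a difference between any 2 clones of this line. Every value is therefore given for both hybridizations, whose difference shows technical error only.

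RUNX2 is a Runt-domain transcription factor that mesenchymal cells need in order to become osteoblasts. With its partner CBFB it binds short DNA elements in the regulatory regions of bone genes, among them those of osteocalcin, osteopontin and bone sialoprotein, and osterix acts downstream of it. Osteoblasts also set the pace of bone resorption, since RANKL drives the formation of osteoclasts and osteoprotegerin binds RANKL and keeps it from its receptor.

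The upstream sequences of 4 genes are shown so that the letters of the RUNX element can be seen where they occur. SPP1 and BGLAP are the osteoblast genes whose RefSeq promoter window holds these letters on either strand. IBSP is a bone matrix gene whose window does not, and RUNX2 is the targeted gene. Each line gives the 250 bases before the start of the gene in the assembly GRCh38.p14, 5′ to 3′ on the plus strand, and the capitals mark TGTGGT or its reverse complement ACCACA. The stretches are chr4:87975464-87975713 for SPP1, chr1:156241934-156242183 for BGLAP, chr4:87799304-87799553 for IBSP and chr6:45328080-45328329 for the upstream start of RUNX2.
SPP1: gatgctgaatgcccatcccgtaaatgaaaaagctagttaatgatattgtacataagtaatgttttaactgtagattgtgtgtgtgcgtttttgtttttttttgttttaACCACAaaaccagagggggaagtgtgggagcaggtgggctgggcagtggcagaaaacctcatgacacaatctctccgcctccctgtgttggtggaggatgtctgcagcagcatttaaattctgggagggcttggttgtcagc
BGLAP: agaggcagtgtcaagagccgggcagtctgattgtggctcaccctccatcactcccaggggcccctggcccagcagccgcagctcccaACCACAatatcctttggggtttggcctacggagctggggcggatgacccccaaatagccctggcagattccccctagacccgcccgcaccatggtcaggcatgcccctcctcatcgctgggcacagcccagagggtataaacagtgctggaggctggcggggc
IBSP: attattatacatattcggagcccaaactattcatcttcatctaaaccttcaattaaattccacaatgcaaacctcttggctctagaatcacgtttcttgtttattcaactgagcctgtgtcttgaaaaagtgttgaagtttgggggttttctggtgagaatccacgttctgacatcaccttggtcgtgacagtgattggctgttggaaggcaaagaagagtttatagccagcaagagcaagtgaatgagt
RUNX2: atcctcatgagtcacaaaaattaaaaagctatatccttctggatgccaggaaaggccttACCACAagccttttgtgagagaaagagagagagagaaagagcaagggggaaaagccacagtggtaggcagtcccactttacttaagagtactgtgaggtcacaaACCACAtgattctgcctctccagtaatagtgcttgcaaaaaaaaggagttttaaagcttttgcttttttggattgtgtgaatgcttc

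RefSeq windows from 250 bases before to 50 bases after a start were at hand for 9 starts of 6 of the osteoblast genes. SP7, DLX5 and TNFRSF11B were not among them. The letters TGTGGT or ACCACA were found in 2 of the 9 windows, both as ACCACA. They lie 142 bases before the start of SPP1 and 163 bases before that of BGLAP. Among all 35116 windows of 300 bases, 13.1% held these letters on either strand. Forms of the RUNX element with another base inside TGTGG or CCACA were not searched, so no window is said to lack the element. The windows of ALPL, MSX2 and TNFSF11 did not hold these letters. The upstream RUNX2 window held 4 matches, at 191 and 87 bases before the start and at bases 17 and 25 after it, and the window of its other start held 0. With the shorter letters TGTGG and CCACA, which lie inside the longer ones, 5 of the 9 windows had a match, as did 51.4% of all windows. A match is a run of letters in the reference and no measurement of binding in these cells.

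The authors deposited the intensity of each spot in each dye as Agilent's Feature Extraction read it, and with it a flag for signals well above background. Intensities were corrected for background with limma's normexp method, which adds an offset of 50 and so draws the ratios of dim probes towards 0, and were normalized by loess within each array. Ratios are the log2 of cl-sh3 over control, so that a negative value is a lower level in cl-sh3. The flag was set on between 77.3% and 93.9% of spots per channel, least often in the Cy5 channel of hybridization 2, which held the control. Kept were the 36065 of 41000 probes on which the same RNA, of cl-sh3 or of the control, stood well above background in both hybridizations. Local background was higher in Cy5, with medians of 166.5 and 164, than in Cy3, with medians of 46 and 43, so raw signals of the 2 dyes cannot be set side by side.

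Of the probes of the targeted gene, only the brightest was lower by 2-fold or more in the knockdown clone. For RUNX2 probe A_32_P161762, the signal of the control was 2144 in hybridization 1 and 2169 in hybridization 2, and that of cl-sh3 was 1084 and 777. The log2 ratios were -2.04 and -1.31, a mean of -1.67 or 3.18-fold lower in cl-sh3. The dimmer RUNX2 probe A_24_P69267 with the same RefSeq accession gave 0.18 and -0.13 on the log2 scale. The RUNX2 probe A_32_P148058, of another transcript accession, had log2 ratios of -0.29 and -0.17, and the control was well above background on it in 1 of 2 hybridizations. The 3 RUNX2 probes thus gave unequal ratios, and where each of them lies in the gene was not analysed here. Apart from the arrays, the paper reports significantly lower RUNX2 mRNA by RT-PCR and lower protein by Western blot in cl-sh3 than in the control.

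None of the osteoblast genes displayed a 2-fold difference between the clones. Of the 13 probes 12 were kept, for 8 of the 9 genes, and 0 of these 12 differed 2-fold or more, either way, in both hybridizations. Over all kept probes with both ratios this count was 186 of 36060, or 0.516%, and a count of 0 of 12 does not set these genes apart from that background. With the scanner software's ratios, 253 probes were lower and 103 higher by the same rule. In either hybridization taken alone, 0 of the 12 probes passed 2-fold, and 0 passed 1.5-fold, a log2 ratio of 0.585 in size, although IBSP passed 1.5-fold in hybridization 1 with an offset of 0, at -0.76, and with the software's ratios, at -0.93. At least 1.5-fold in both hybridizations was reached by 3.67% of all kept probes. The share of all kept probes past either fold in 1 hybridization alone was not counted. The counts of 0 by that rule thus do not set the osteoblast genes apart. The log2 ratios of the 12 probes ranged from -0.52, of IBSP in hybridization 1, to 0.31, of a BGLAP probe in hybridization 2.

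**Figure D1:**
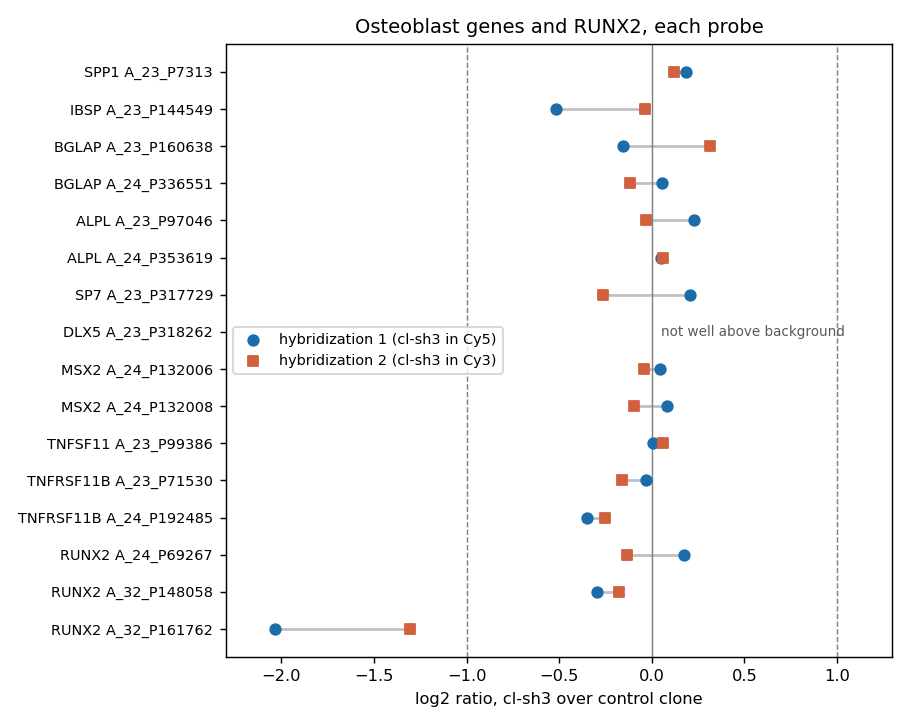
Log2 ratio of cl-sh3 over the control clone (x axis) for each probe of the 9 osteoblast genes and of RUNX2 (y axis), with circles for hybridization 1, squares for hybridization 2, a grey bar between them, and no points for the DLX5 probe, on which neither RNA was well above background. The dashed lines stand at 2-fold, and RUNX2 probe A_32_P161762 is the only probe beyond them, at -2.04 and -1.31.

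Nor did the genes share a direction. Over the 8 kept genes, each by its brightest probe, the median of the mean log2 ratio was -0.02, against 0.01 over the 16153 kept genes of the array. The median of the 8 genes was 0.05 in hybridization 1 and -0.07 in hybridization 2. Of the 12 kept probes, 3 were below 0 in both hybridizations, 3 were above 0 in both, and 6 changed sign between them. Over all kept probes, 27.3% were below 0 in both and 29.8% above 0 in both. The ratio of a probe differed between hybridizations by a median of 0.15 over these 12 probes and by up to 0.48, and by a median of 0.22 over all kept probes.

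**Figure D2:**
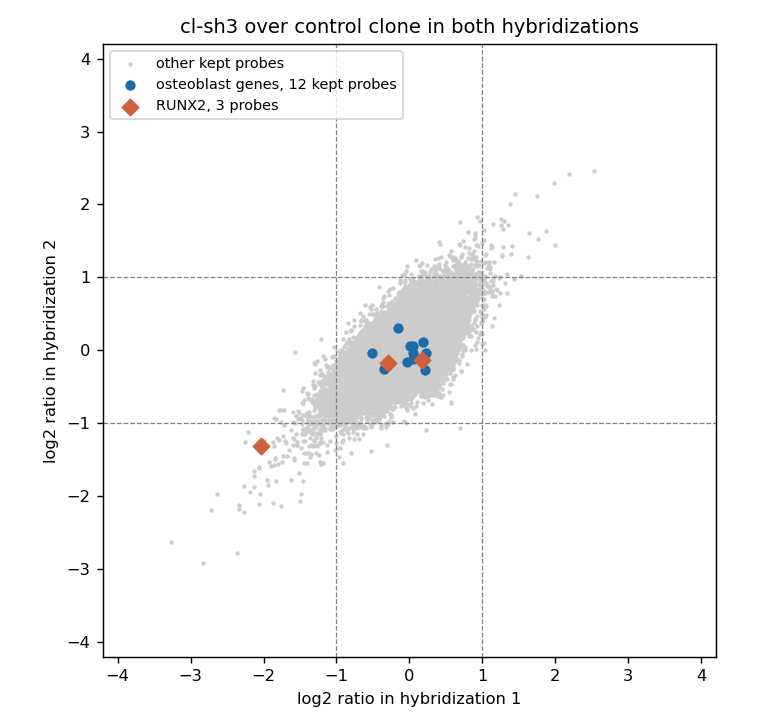
Log2 ratio of cl-sh3 over the control clone in hybridization 1 (x axis) against hybridization 2 (y axis) for the kept probes, in grey, with the 12 kept probes of the osteoblast genes as circles and the 3 RUNX2 probes as diamonds, and dashed lines at 2-fold. The osteoblast genes lie inside the central cloud, between -0.52 and 0.31 on either axis, and 1 RUNX2 probe lies at -2.04 and -1.31.

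Among the matrix proteins, osteopontin gave a strong signal in both clones, with a small difference. SPP1 encodes a secreted, acidic glycoprotein that binds integrins and CD44 and is made by many carcinomas besides bone. Its probe A_23_P7313 was printed 10 times on each array, and the median signal over its spots was 46339 for cl-sh3 and 20821 for the control in hybridization 1, and 29866 for cl-sh3 and 28452 for the control in hybridization 2. These signals stood between 171 and 664 times above local background, and both RNAs were well above background on all 10 spots. The log2 ratio was 0.19 ± 0.12 (SD of 10 spots) in hybridization 1 and 0.12 ± 0.14 (SD of the 8 spots without an outlier flag) in hybridization 2. The mean of 0.15 is 1.11-fold higher in cl-sh3, and 43.5% of kept probes had a mean ratio of larger size. All 10 spots were above 0 in hybridization 1, and 6 of 8 were in hybridization 2, so the spots of hybridization 2 lay on both sides of 0. When arrays were centred on their median and loess was left out, the mean was 0.30.

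IBSP, which encodes bone sialoprotein, a glycoprotein of mineralized matrix that seeds mineral, was dim in both clones. On probe A_23_P144549 the signal of cl-sh3 was 330 in hybridization 1 and 144 in hybridization 2, and that of the control was 171.5 and 265. These are between 1.99 and 3.81 times the local background. The control was well above background in hybridization 1 and not in hybridization 2, while cl-sh3 was in both. The log2 ratios of IBSP were -0.52 and -0.04, so that nearly all of the mean of -0.28 came from hybridization 1. The scanner software's own ratios for IBSP were larger, -0.93 and -0.41, with a mean of -0.67, and still under 2-fold in each. The size of the IBSP ratio thus depended on the processing.

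BGLAP encodes osteocalcin, a small calcium-binding protein that osteoblasts secrete and that is the classical RUNX2 target. Its brighter probe A_24_P336551 had signals of 1151 and 565.5 in cl-sh3 and of 566 and 808.5 in the control, in hybridizations 1 and 2. The log2 ratios were 0.05 and -0.12, a mean of -0.03. The other BGLAP probe, A_23_P160638, had signals of 698.5 and 455 in cl-sh3 and of 357.5 and 539.5 in the control, and log2 ratios of -0.15 and 0.31. Each probe changed sign between hybridizations, and in opposite order, so that no direction can be given for osteocalcin. RefSeq also lists readthrough transcripts PMF1-BGLAP across this gene, and RNA from these and from BGLAP cannot be told apart here.

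ALPL, the tissue-nonspecific alkaline phosphatase that clears pyrophosphate and so permits mineral to form, had nearly equal levels in both clones. Its brighter probe A_24_P353619 had signals of 626 and 388 in cl-sh3 and of 268 and 545 in the control. The log2 ratios of 0.05 and 0.06 were the closest pair among the osteoblast genes, with a mean of 0.06 or 1.04-fold. The second ALPL probe, A_23_P97046, had signals of 585 and 301 in cl-sh3 and of 219 and 510 in the control, and log2 ratios of 0.23 and -0.03. The means of both probes differed by 0.04. All 4 signals of each ALPL probe were well above background.

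**Figure D3:**
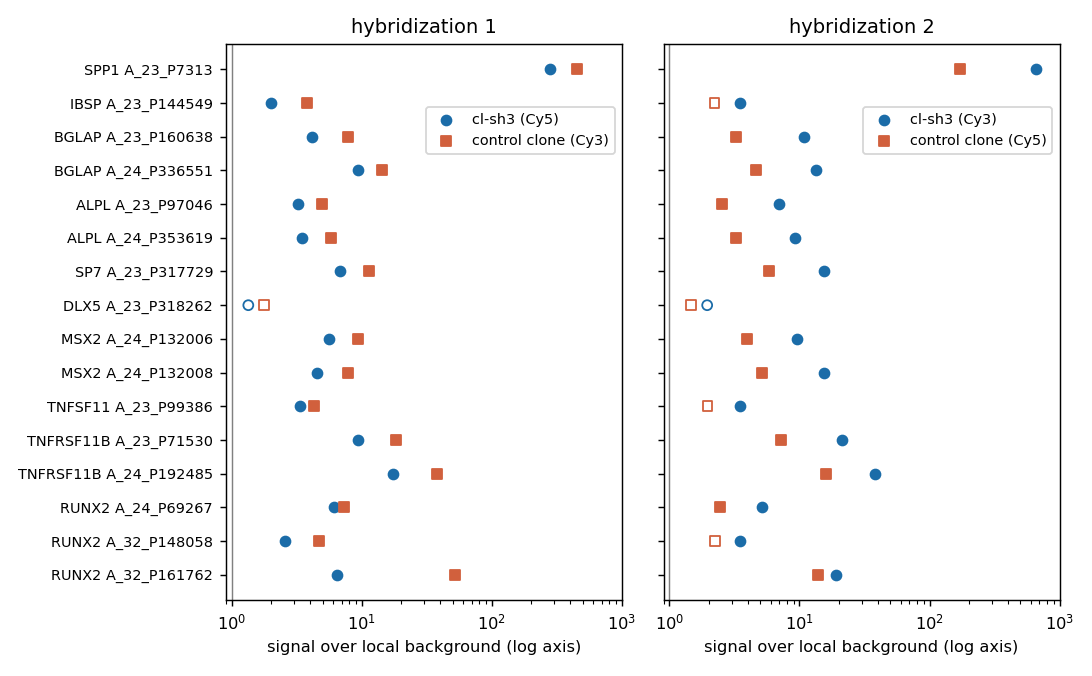
Median spot signal divided by median local background (x axis, log scale) for each probe of the osteoblast genes and RUNX2 (y axis) in hybridization 1 (left) and hybridization 2 (right), with circles for cl-sh3, squares for the control clone, and open symbols where the RNA was not well above background. SPP1 stands apart at 171 to 664, DLX5 lies below 2 in all 4 channels, and the Cy5 channel lies left of Cy3 for every probe shown.

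The transcription factors SP7 and MSX2 did not differ beyond the gap between hybridizations. SP7 encodes osterix, the zinc finger factor required after RUNX2 for bone formation, and its probe A_23_P317729 had signals of 1121 and 701 in cl-sh3 and of 478 and 1051 in the control. The log2 ratios of SP7 were 0.21 and -0.26, opposite in sign, with a mean of -0.03. DLX5, a homeobox factor that acts upstream of RUNX2 and osterix in the skeleton, was not well above background in either clone in either hybridization. The signals of its probe A_23_P318262 were 258 and 82 in cl-sh3 and 87 and 250 in the control, between 1.34 and 1.95 times the local background. No fold is therefore given for DLX5, and its level was not detectable in these cells with this probe.

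MSX2, a homeobox factor of the skull and of epithelial and mesenchymal contacts, was measured well above background by 2 probes. The brighter probe A_24_P132008 had signals of 822 and 653 in cl-sh3 and of 365 and 901 in the control, with log2 ratios of 0.08 and -0.10. Probe A_24_P132006 had signals of 878 and 373 in cl-sh3 and of 414 and 525 in the control, with log2 ratios of 0.04 and -0.04. Both means lay within 0.01 of 0, at -0.01 and 0.00, and 96.1% and 99.2% of kept probes had a mean ratio of larger size. Of the osteoblast genes, under this processing MSX2 was nearest to equal levels in the clones.

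TNFSF11 and TNFRSF11B encode RANKL and osteoprotegerin, a pair whose balance governs osteoclast formation. The TNFSF11 probe A_23_P99386 was dim, with signals of 428.5 and 152 in cl-sh3 and of 198 and 288 in the control, between 1.96 and 4.30 times the local background. The control was not well above background in hybridization 2. The log2 ratios of TNFSF11 were 0.01 and 0.06, a mean of 0.03. With the scanner software's ratios the mean was -0.05, so neither sign held.

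TNFRSF11B was below 0 in both hybridizations, by less than 1.5-fold. Its brighter probe A_24_P192485, printed once, had signals of 2765 and 1671 in cl-sh3 and of 1904.5 and 2228.5 in the control. The log2 ratios were -0.35 and -0.25, a mean of -0.30 or 1.23-fold lower in cl-sh3, and 22.4% of kept probes had a mean ratio of larger size. The other TNFRSF11B probe, A_23_P71530, was printed 10 times, and its median signals were 1554 and 880 in cl-sh3 and 823.75 and 1149.5 in the control. Its log2 ratios were -0.03 ± 0.13 (SD of 9 spots) and -0.16 ± 0.17 (SD of 10 spots), a mean of -0.10. Below 0 were 7 of its 9 spots in hybridization 1 and 9 of its 10 in hybridization 2. Both probes lay below 0 in both hybridizations, and their means differed by 0.20. With the software's ratios the probe printed 10 times was at 0.03 in hybridization 1. Over the 256 kept probes printed 10 times, the ratio differed between hybridizations by a median of 0.17, which is more than the mean ratio of this probe.

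**Figure D4:**
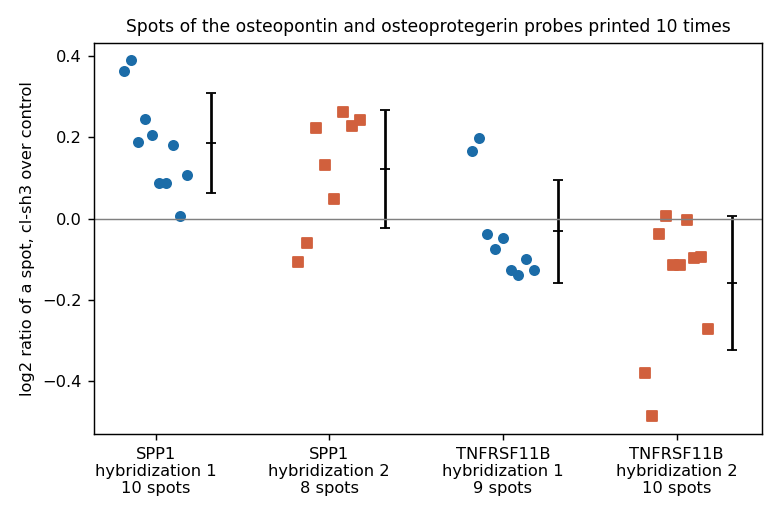
Log2 ratio of cl-sh3 over the control clone (y axis) of each spot used of the SPP1 and TNFRSF11B probes that were printed 10 times, by hybridization (x axis), with circles for hybridization 1, squares for hybridization 2 and a bar for the mean and SD of the spots. The SPP1 spots centre on 0.19 and 0.12 and the TNFRSF11B spots on -0.03 and -0.16, and the spots of 1 probe spread over as much as the distance of these means from 0.

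The detection flag was set on most genes of any kind. Of the 9 genes, 6 had a probe on which both RNAs were well above background in both hybridizations, namely SPP1, BGLAP, ALPL, SP7, MSX2 and TNFRSF11B. The share of all genes of the array that meet this rule was not counted, so the 6 are not read as many or few. The flag was set on between 0% and 1.96% of the 153 negative control spots per channel. Yet by the rule of both RNAs in both hybridizations, 3 of 5 markers of osteoclasts and 5 of 5 of chondrocytes were detected. So were 5 of 5 of leukocytes, 4 of 5 of endothelium and 4 of 5 of fibroblasts. By the looser rule for kept probes, 8 of the 9 osteoblast genes and 24 of these 25 markers were kept. The kept markers had mean log2 ratios between -0.42 and 0.18, and 0 of them were 2-fold different. All 10 markers of carcinoma cells of simple epithelium were kept, with a median log2 ratio of 0.40, and 0 of 10 passed 2-fold in both hybridizations. Above 0 in both hybridizations were 7 of the 10, against 30.9% of all kept genes, and 1 was below 0 in both, and the part of this in the values of the osteoblast genes was not tested. The 2 brightest of them were ERBB2, a receptor for which SKOV3 is known, at -0.86 and -0.45, and the keratin gene KRT18 at 0.54 and 0.44. These values are of the brightest probe of each, and a dimmer ERBB2 probe had the opposite sign, at 0.26 and 0.18. RNA came from whole cultures, so fewer cells making a transcript and less of it in each cell cannot be told apart.

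The wider bone programme was covered by 9 further lists with 100 genes besides the osteoblast genes above. Of these, 97 had a probe and 90 were kept with a ratio in both hybridizations. By their brightest probe, 3 of the 90 were lower and 0 higher by 2-fold or more in both hybridizations. Over all 16153 kept genes, 0.520% were lower and 0.136% higher by this rule. The 3 genes were RUNX2 itself, ATF4 and MMP13, all of which are among the genes that the study listed from these same arrays, so their count is no independent evidence. The median over the 90 genes was -0.02, and 35 were below 0 in both hybridizations and 28 above, against 28.5% and 30.9% of all kept genes.

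MMP13 encodes collagenase 3, which hypertrophic chondrocytes and osteoblasts use on cartilage matrix. Its probe had log2 ratios of -2.27 and -2.21. In hybridization 1, cl-sh3 was not well above background on it. Only the ratio of -2.21 in hybridization 2 thus has both RNAs measured, and no fold is given for the mean. Apart from the arrays, the paper reports less MMP13 RNA in cl-sh3 than in the control by quantitative PCR. ATF4, a factor of the amino acid response that osteoblasts also need for osteocalcin, had log2 ratios of -1.54 and -1.30 by its brightest probe, or 2.68-fold lower, and -0.93 and -0.62 by its other probe. BGLAP, on whose promoter ATF4 and RUNX2 are both known to act, had a mean of -0.03.

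The remaining lists are given by their medians and their 2 brightest genes. In the list of bone matrix proteins 11 genes were kept with a median of -0.08. FN1 (fibronectin) had log2 ratios of -0.30 and -0.42, and SPARC (osteonectin) had -0.31 and -0.83. Dimmer FN1 probes were at -0.69 and -0.19 and at -0.15 and 0.14. Among the 11 kept genes of mineral deposition the median was 0.01, with the phosphate transporter SLC20A1 at -0.95 and -0.37 and the secretory kinase FAM20C at -0.55 and -0.25. None of these matrix and mineral genes reached 2-fold in both hybridizations.

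Of the matrix glycoproteins related to osteopontin and bone sialoprotein, DMP1 was kept, at -0.19 and 0.16, and MEPE and DSPP were not. The 12 kept factors of the osteoblast lineage had a median of -0.17, and besides ATF4 the brightest was FOXO1 at -0.46 and -0.31. Paralogs of the DLX, MSX and SP factors numbered 10 kept genes with a median of 0.12, with SP3 at -0.53 and -1.05 and SP2 at 0.04 and 0.16. Thus the brightest SP3 probe passed 2-fold in hybridization 2 only, and the other SP3 probe was at -0.31 and -0.08.

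Receptors, partners and inducers of RANKL and osteoprotegerin were all 10 kept, with a median of -0.20. Below 0 in both hybridizations were 6 of them and above 0 in both were 0, against 28.5% and 30.9% of all kept genes. The brightest of them were LGR4, another RANKL receptor, at 0.08 and -0.04, and TNFSF10 (TRAIL), another ligand of osteoprotegerin, at -0.06 and -0.48. A dimmer LGR4 probe was at 0.42 and 0.77. Uneven counts below and above 0 were not particular to this list. Of the 12 kept lineage factors, 7 were below 0 in both hybridizations and 3 above. Of the 10 kept DLX, MSX and SP paralogs, 1 was below 0 in both and 6 above. Osteopontin receptors had a median of 0.04 over 9 genes, with the integrin chain ITGB1 at -0.22 and -0.62 and CD44 at -0.21 and 0.00. The 20 genes of BMP and WNT signalling had a median of 0.03. ID1 was at -0.08 and -0.06, and the WNT antagonist SFRP1 was at 0.68 and 0.12. A dimmer SFRP1 probe was at 0.15 and 0.83. In the list of genes described as RUNX2 targets in cartilage and tumour cells, 8 were kept with both ratios, with a median of -0.07. Another gene of the list was well above background but had no ratio in hybridization 2, where its spot was dropped for an outlier flag. Besides MMP13, the brightest of the 8 were the apoptosis inhibitor BIRC5 and the angiogenic factor VEGFA. BIRC5 was at 0.08 and 0.42, and VEGFA was at -0.91 and -0.87 by its brightest probe. The ratios of the other 3 VEGFA probes ranged from -1.04 to -0.09, and none of these probes passed 2-fold in both hybridizations.

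**Figure D5:**
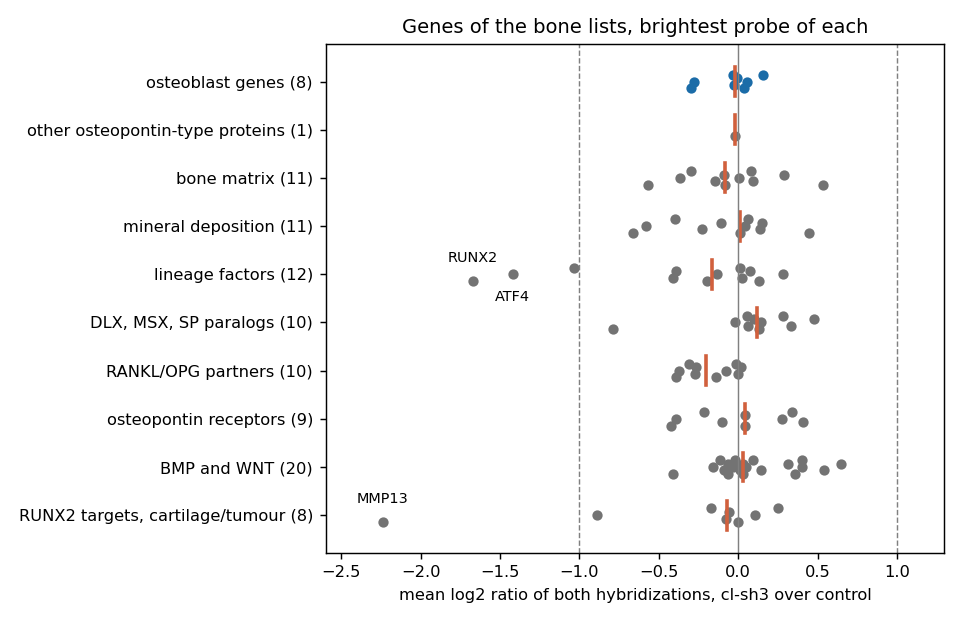
Mean log2 ratio of both hybridizations (x axis) for each kept gene of the osteoblast genes and of the 9 further bone lists (y axis, number of kept genes in brackets), by the brightest probe, with an upright bar at each median and dashed lines at 2-fold. Names mark the genes at least 2-fold lower in both hybridizations, RUNX2, ATF4 and MMP13, while the osteoblast genes lie between -0.30 and 0.15.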

How the data were processed

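The authors deposited the intensity of every spot of the 2 dye-swap hybridizations, with local backgrounds and flags, and a table of log10 ratios within 0.00245 and 0.00500 of the log10 ratio given by the scanner software. The deposited intensities were not normalized. Feature Extraction is version 10.5.1.1 per the file headers and 8.5.1.1 per the labels.

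In limma 3.58.1 (R 4.3.3), the median pixel intensities were corrected with normexp (offset 50), control spots were removed, spots with an outlier flag (153 and 144) were dropped, and loess was run within each array. The log2 ratios of repeated spots were averaged, and an RNA counted as well above background where the software had flagged 50% or more of a probe's spots. Genes with several probes are counted by the brightest. A difference was counted at 2-fold or more in both hybridizations, the rule of the study. With 1 replicate no test was run. The number of arrays limits the precision. The steps were tested on simulated data with planted changes larger than any osteoblast gene showed, in probes above a set brightness. That test does not cover small differences or dim probes.

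RefSeq accessions were given symbols from a table of GRCh38.p14, which held 18023 of 19228, and 1 more, of RUNX2, through the paper's gene table. Promoter sequences are from RefSeq, with no array coordinates used. The osteoblast genes and the lists were chosen from general knowledge with earlier results of these data known. Named are the 9 osteoblast genes and RUNX2 with every probe, list genes past 2-fold in both hybridizations, and the 2 brightest of each bone list and of the epithelial list. The brightest genes of the other marker lists are not reported here. COL1A1, ALPPL2 and SP6 had no named probe. Alternatives were no offset (0) in normexp, no background correction, Aquantile, median centring, the software's ratios, the deposited table, outlier spots kept, other detection rules, each hybridization alone, the mean of both, a 1.5-fold rule, the mean of all probes and a shorter motif. Counts and figures were made with Python 3.11.15, pandas 2.3.3, numpy 2.4.6 and matplotlib 3.10.9.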

Additional observations from a re-analysis of the deposited data

How the results depend on the processing

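The count of osteoblast genes past 2-fold was 0 under all 14 alternatives, the rule of 1.5-fold in both hybridizations among them, and their median stayed between -0.07 and 0.05, the values of the single hybridizations. Of the 80 values of single osteoblast genes under alternatives, 66 moved by less than the SD between hybridizations, and the largest in size was 0.67, of IBSP with the software's ratios. The count of 66 is no measure of stability, because many of these values could not move further. A value from 1 hybridization alone cannot differ from the mean by more than this SD. Aquantile left the ratios as they were, and averaging all probes cannot move a gene with 1 probe. SPP1 and ALPL lay above 0, and IBSP and TNFRSF11B below 0, under 9 of 9 settings that use both hybridizations, while BGLAP, MSX2, SP7 and TNFSF11 had either sign. The 12 kept probes were 12 also when every spot had to carry the flag.

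Of the other bone genes, 3 passed 2-fold, and 5 passed 1.5-fold, the added ones being VEGFA and HEY1, which was named after its values were seen. When all probes of each gene were averaged, 1 passed, MMP13, since the other probes of RUNX2 and ATF4 had smaller ratios. Each hybridization alone gave 4. Over all kept probes, 142 were lower and 44 higher, and 253 and 103 with the software's ratios. Median centring left these 3 genes called and moved the share of lower among all called probes from 76.3% to 61.7%. With both RNAs required to be well above background MMP13 was lost and 2 remained, and without the RUNX2 accession named through the paper, an alternative chosen after seeing the data, 2 passed. The shorter motif was in 5 promoter windows in place of 2. Each ratio pairs both RNAs on 1 array, but the 2 hybridizations share the same 2 RNAs, so no paired test was possible. Signal over background limits DLX5, IBSP and TNFSF11.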
